A study of Mus musculus with 8 samples.

Results

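The 10 genes described here carry the insulin and insulin-like growth factor (IGF) signal, and they were chosen by symbol and not by their values. They are the ligand gene *Igf1*, the receptor genes *Insr* and *Igf1r*, the adaptor genes *Irs1* and *Irs2*, and the IGF-binding protein (IGFBP) genes *Igfbp2*, *Igfbp3*, *Igfbp4*, *Igfbp5* and *Igfbp7*, out of 41325 genes listed for each library. They were measured by RNA-seq in C3H10T1/2, mouse cells of mesenchymal stem cell (MSC) character that can be turned into adipocytes in culture. The 4 lines were shControl cells, labelled wild type, and shKDM4D, shNFIB and shMLL1 cells, in which a stably expressed short hairpin RNA targets the histone demethylase KDM4D, the transcription factor NFIB or the histone methyltransferase MLL1. Each line was sequenced at day 0 and at day 5, which gave 8 libraries and no replicates. Day 0 cells had been confluent for 2 days and had not been induced. Every day 5 culture, shControl included, had received 10 µg/ml insulin, 1 µM dexamethasone and 0.5 mM isobutylmethylxanthine in serum until day 2 and insulin alone in serum until day 4, so that insulin was itself part of the treatment that separates day 5 from day 0. According to the study's methods the knockdown lines were isolated as puromycin-resistant clones, and which clone was sequenced is not given in the sources used here. With 1 library per line, an effect of the hairpin and a property of the clone cannot be told apart.

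Insulin and IGF1 bind related receptor tyrosine kinases, the insulin receptor (encoded by *Insr*) and the IGF1 receptor (encoded by *Igf1r*). The activated receptors phosphorylate the adaptor proteins IRS1 and IRS2, which recruit PI3-kinase and start the AKT pathway that drives glucose uptake, lipid synthesis and growth. The secreted IGFBPs bind IGFs outside the cell, prolong their life and hold them from or hand them to the receptor. IGFBP7 binds IGFs only weakly. Preadipocytes respond to insulin at the high doses of a differentiation cocktail largely through the IGF1 receptor, and mature adipocytes carry mainly the insulin receptor.

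The values are RPKM, the reads of a gene scaled to the length of its exons in kilobases and to the mapped reads of the library, which allows levels to be compared between genes. Multiplying RPKM by the annotated exon length gave back whole reads, and with them a depth between 15800000 and 38200000 mapped reads per library. A log2 ratio between libraries is followed by its exact 95% interval in brackets, which covers counting error only. As there were no replicate libraries, no p-value is given, and "rose", "fell", "higher" and "lower" are used of ratios past 2-fold. The summed RPKM of 8 mesenchymal markers lay between 906 and 1890.4 in the 8 libraries, and at least 7 of the 8 were above an RPKM of 1 in each. *Thy1* was under 0.1 in shKDM4D cells at day 0 and in shNFIB cells on both days. The summed RPKM of the 7 adipocyte markers *Adipoq*, *Fabp4*, *Plin1*, *Cidec*, *Lpl*, *Lep* and *Cfd* was at most 0.702 at day 0. At day 5 it was 796 for shControl, 25.5 for shKDM4D, 0.936 for shNFIB and 2.86 for shMLL1 cells. Of the 7 markers, 6, 4, 0 and 1 were above an RPKM of 1 at day 5 in the same order, and *Lep* was under 0.1 throughout. The summed RPKM of the other marker lists was taken over all 8 libraries. This sum was at most 2.23 for 5 macrophage, 1.81 for 4 epithelial and 1.72 for 4 endothelial markers, and 2.94 to 8.44 for 5 osteoblast markers. It was 71.7 to 193 for 3 chondrocyte markers with *Acan* under 0.1 throughout. For 4 smooth muscle markers it was 289.7 to 1287, with *Cnn1* under 0.1 throughout and *Myh11* under 0.1 at day 0. Whether these lists have a part in the results was not tested. The targeted *Nfib* and *Kmt2a* (MLL1) were 2.31 against 9.92 and 2.00 against 5.17 RPKM in their knockdown and in shControl cells at day 0, whereas *Kdm4d* was at most 0.235 RPKM in any library.

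*Igf1* (chromosome 10 of GRCm38, 87858265 to 87937042, plus strand, protein coding), the one ligand among the 10 genes, was nearly silent before induction and rose in every line. At day 0 its RPKM was 0.280 for shControl, 0.310 for shKDM4D, 0.503 for shNFIB and 0.0978 for shMLL1 cells, from 74, 60, 93 and 37 reads. At day 5 it was 8.38, 12.5, 30.9 and 3.14 in the same order. All 4 day 5 values lay above all 4 day 0 values, and the order of the lines at day 5, shNFIB above shKDM4D above shControl above shMLL1, was also their order at day 0, although shControl and shKDM4D cells could not be told apart there. The log2 change from day 0 to day 5 was 4.90 (4.57 to 5.26) for shControl, 5.33 (4.96 to 5.73) for shKDM4D, 5.94 (5.65 to 6.25) for shNFIB and 5.00 (4.53 to 5.52) for shMLL1 cells. In shNFIB cells, with the lowest adipocyte marker sum at day 5, *Igf1* was 3.69-fold higher than in shControl cells (log2 1.88, 1.80 to 1.96), and in shMLL1 cells it was 2.67-fold lower (log2 -1.42, -1.53 to -1.31). Between these 2 lines the difference was 9.86-fold (log2 3.30, 3.21 to 3.39). In shMLL1 cells *Igf1* was also lower at day 0 (log2 -1.52, -2.13 to -0.93), or -0.94 with 0.1 added to each RPKM. In shKDM4D cells the day 5 ratio to shControl cells was 0.57 (0.48 to 0.66), within 2-fold. In bulk cultures such as these, fewer cells that express a gene and less RNA per cell cannot be told apart.

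**Figure D1:**
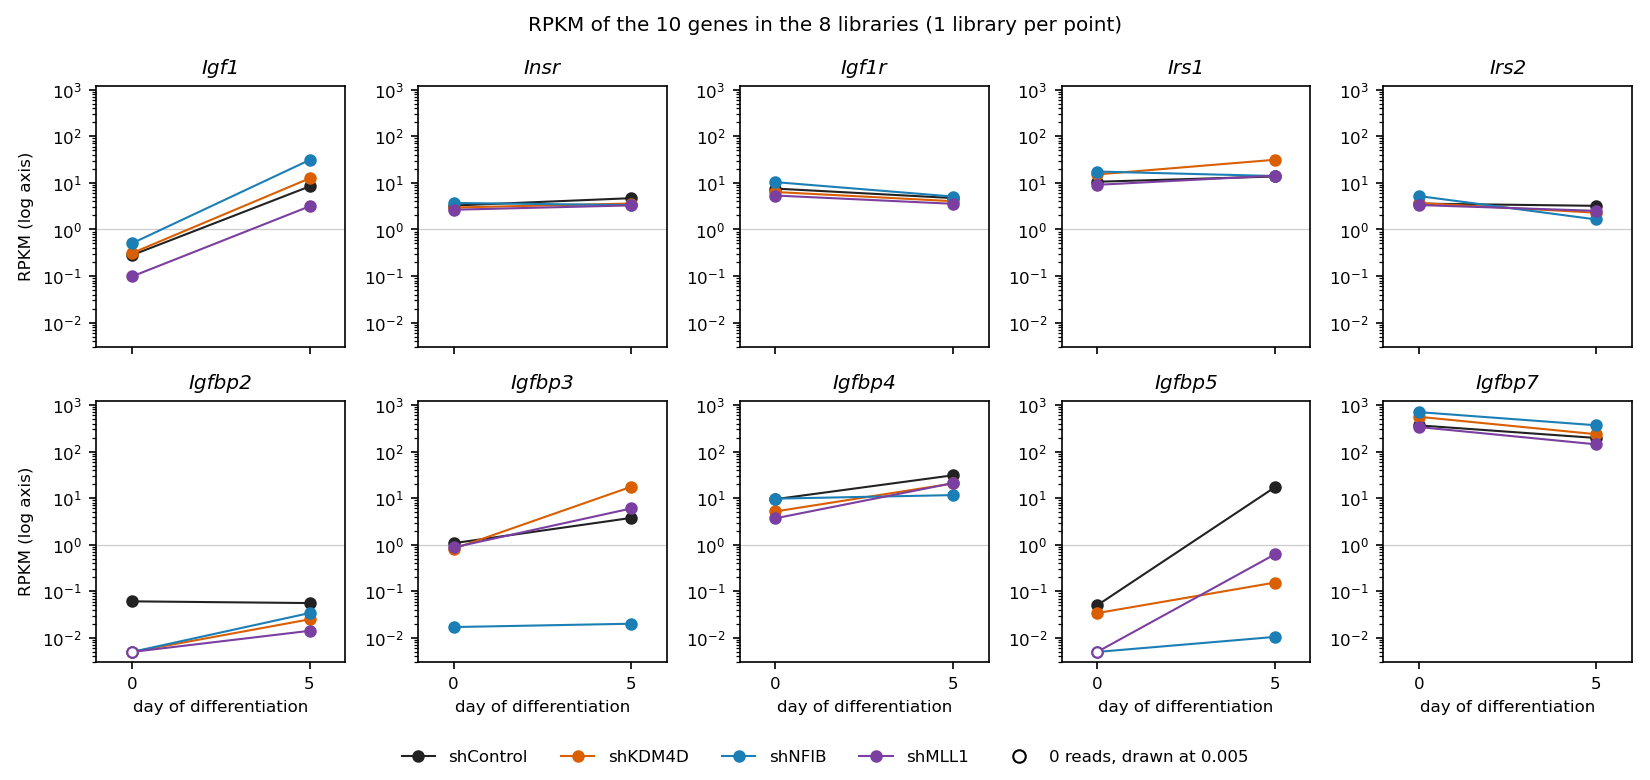
RPKM on a log axis (vertical) at day 0 and day 5 (horizontal) for the 10 genes, with 1 point per library, a line joining the 2 libraries of a cell line, and open points for libraries with 0 reads, drawn at 0.005. *Igf1* climbs in all 4 lines (to between 3.14 and 30.9), *Igfbp5* climbs above an RPKM of 1 in shControl cells alone, *Igfbp3* stays at 0.0171 and 0.0202 in shNFIB cells, and the receptor and adaptor genes move over a much narrower range.

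*Igf2*, the fetal growth factor, was the other ligand gene to pass an RPKM of 1. It lay at no more than 0.0894 RPKM in any line at day 0, and at day 5 it was 1.45 for shControl, 2.03 for shKDM4D, 1.01 for shNFIB and 0.188 for shMLL1 cells. It rose in every line. The log2 change was 4.08 (3.27 to 5.02) for shControl, 4.50 (3.60 to 5.58) for shKDM4D and 4.36 (2.42 to 7.45) for shMLL1 cells. For shNFIB cells, with 0 reads at day 0, the interval began at 4.85. At day 5 *Igf2* was 7.70-fold lower in shMLL1 than in shControl cells (log2 -2.94, -3.48 to -2.44), where *Igf1* was lower as well. Of the insulin genes, *Ins2* reached 0.0353 in 1 library while *Ins1* had no read in any library. *Igf1* was therefore the most abundant ligand mRNA in each of the 8 libraries, with *Igf2* at 1.45 RPKM against 8.38 for *Igf1* in shControl cells at day 5.

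The receptor genes changed little beside the ligand. *Insr* (chromosome 8, 3122061 to 3279617, minus strand) had an RPKM of 3.26 for shControl, 2.96 for shKDM4D, 3.71 for shNFIB and 2.65 for shMLL1 cells at day 0, and of 4.69, 3.60, 3.32 and 3.29 at day 5. Its highest level, in shControl cells at day 5, was 1.77 times its lowest, and none of its ratios passed 2-fold. The log2 change from day 0 to day 5 was 0.52 (0.41 to 0.64) for shControl, 0.29 (0.15 to 0.42) for shKDM4D, -0.16 (-0.30 to -0.02) for shNFIB and 0.31 (0.21 to 0.41) for shMLL1 cells, the last of which became -0.07 after quantile normalization. At day 5 the ratio to shControl cells was -0.38 (-0.50 to -0.26), -0.50 (-0.63 to -0.36) and -0.51 (-0.62 to -0.41) in shKDM4D, shNFIB and shMLL1 cells, so that all 3 intervals left out 0 on the same side. *Igf1r* (chromosome 7, 67952827 to 68233668, plus strand) had an RPKM of 7.54, 6.37, 10.4 and 5.35 at day 0 in shControl, shKDM4D, shNFIB and shMLL1 cells, and of 4.72, 4.04, 5.09 and 3.55 at day 5. The 4 day 5 values lay below the 4 day 0 values. The log2 change was -0.68 (-0.76 to -0.59), -0.66 (-0.75 to -0.56), -1.03 (-1.12 to -0.94) and -0.59 (-0.67 to -0.51) across these lines, past 2-fold in shNFIB cells by a narrow margin.

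The balance between the receptor transcripts moved toward *Insr* in every line. A ratio of 2 genes within a library does not depend on how libraries are scaled against each other. The RPKM of *Insr* divided by that of *Igf1r* before induction was 0.433 (95% interval 0.405 to 0.462) in the control line, and by day 5 it had reached 0.994 (0.922 to 1.07). It went from 0.464 to 0.892 in shKDM4D cells and from 0.495 to 0.926 in shMLL1 cells. The shNFIB line moved from 0.358 (0.332 to 0.385) to 0.654 (0.596 to 0.716), the lowest value on each of the days, with intervals that met no other line's. *Igf2r*, whose product takes up IGF2 for degradation, was the most abundant receptor mRNA of the family at 13.8 to 38.5 RPKM, and *Insrr*, the insulin receptor-related receptor, had no read.

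The adaptor genes went apart. *Irs1* (chromosome 1, 82233101 to 82291416, minus strand) had an RPKM of 10.6, 15.2, 17.5 and 9.08 at day 0 in shControl, shKDM4D, shNFIB and shMLL1 cells, and of 13.7, 31.3, 14.0 and 14.3 at day 5. The shKDM4D library at day 5 stood above the other 7, which overlapped between days. There *Irs1* was 2.28-fold higher than in shControl cells (log2 1.19, 1.12 to 1.26). The ratio was 0.03 (-0.05 to 0.12) in shNFIB and 0.06 (-0.01 to 0.13) in shMLL1 cells, whose differences from shControl cells were not detectable at this depth. From day 0 to day 5 the log2 change was 0.38 (0.29 to 0.46) for shControl, 1.04 (0.98 to 1.11) for shKDM4D, -0.32 (-0.40 to -0.24) for shNFIB and 0.66 (0.59 to 0.72) for shMLL1 cells. The change in shKDM4D cells lay on the 2-fold limit and was 0.97 once the 2 rRNA-like rows were left out.

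*Irs2* (chromosome 8, 10984681 to 11008458, minus strand) had an RPKM of 3.59, 3.699, 5.21 and 3.34 at day 0 and of 3.22, 2.29, 1.64 and 2.51 at day 5 in the same order. All 4 day 5 values lay below all 4 day 0 values. The log2 change was -0.16 (-0.34 to 0.03) for shControl, -0.69 (-0.90 to -0.48) for shKDM4D, -1.67 (-1.93 to -1.42) for shNFIB and -0.41 (-0.57 to -0.26) for shMLL1 cells, past 2-fold in shNFIB cells. At day 5 the ratio to shControl cells was -0.49 (-0.71 to -0.27), -0.97 (-1.25 to -0.71) and -0.36 (-0.54 to -0.17) in shKDM4D, shNFIB and shMLL1 cells. The ratio in shNFIB cells passed 2-fold after quantile normalization (-1.10) and median-of-ratios scaling (-1.06). The ratio of *Irs1* to *Irs2* within a library in the control line was 2.95 (2.70 to 3.23) before induction, and at day 5 it was 4.26 (3.83 to 4.75). It was 4.11 and 13.7 (12.2 to 15.4) for shKDM4D, 3.36 and 8.57 (7.30 to 10.1) for shNFIB, and 2.72 and 5.70 (5.24 to 6.21) for shMLL1 cells. At day 5 the 4 lines followed in the order shKDM4D, shNFIB, shMLL1, shControl, and no 2 of their intervals overlapped.

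**Figure D2:**
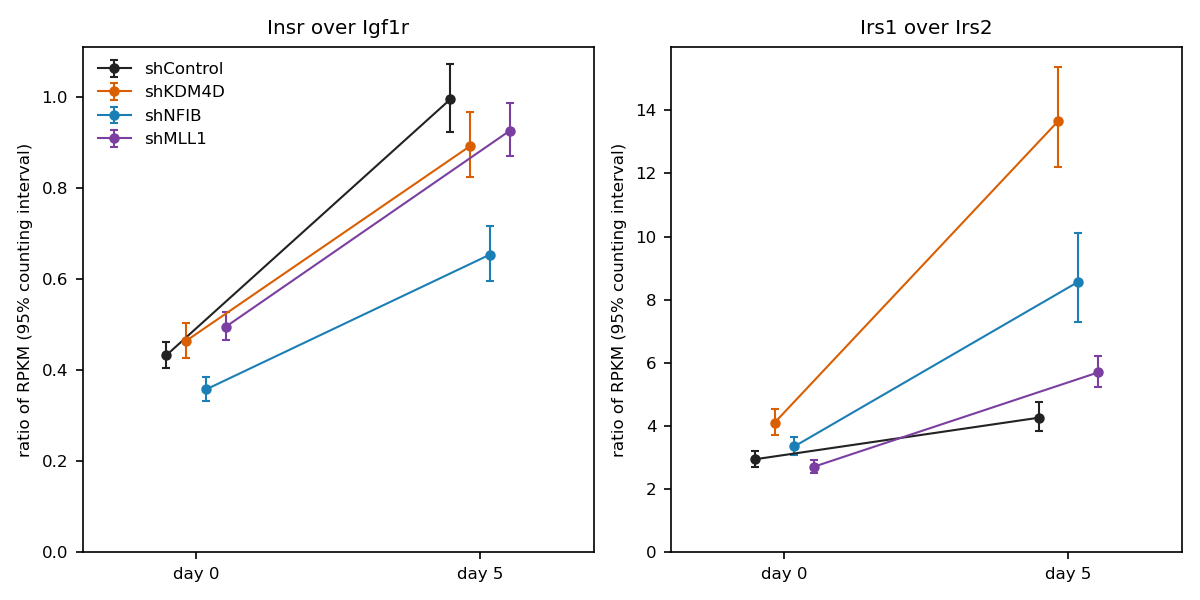
Ratio of *Insr* to *Igf1r* (left) and of *Irs1* to *Irs2* (right) in RPKM at day 0 and day 5 for the 4 lines, with 1 point per library and bars for the exact 95% counting interval. The receptor ratio is above its day 0 value in every line and lowest in shNFIB cells (0.654 at day 5), and the adaptor ratio reaches 13.7 in shKDM4D cells at day 5.

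The 250 bases before the start of the adaptor genes and of *Igfbp3* and *Igfbp5* are shown because the lines differed in these genes, and because NFIB, one of the targeted factors, binds DNA. The lines also differed in *Igf1* and *Igfbp4*, whose windows were searched but are not shown. The sequences are those of RefSeq on GRCm38.p6, which held a promoter for 9 of the 10 genes, all except *Insr*. They are written 5′ to 3′ on the strand of the gene and end at the annotated start, with *Igfbp5* ending where its exon begins in GENCODE M21. The windows are chr1:82291440-82291689 (minus strand) for *Irs1*, chr8:11008930-11009179 (minus) for *Irs2*, chr11:7213924-7214173 (minus) for *Igfbp3* and chr1:72874885-72875115 (minus) for *Igfbp5*. Capitals mark matches, on either strand, to the motifs searched.
Irs1: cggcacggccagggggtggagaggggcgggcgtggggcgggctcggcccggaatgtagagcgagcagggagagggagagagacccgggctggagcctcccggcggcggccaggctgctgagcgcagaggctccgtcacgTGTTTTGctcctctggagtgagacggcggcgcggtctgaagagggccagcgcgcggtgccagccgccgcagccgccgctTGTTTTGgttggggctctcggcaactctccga
Irs2: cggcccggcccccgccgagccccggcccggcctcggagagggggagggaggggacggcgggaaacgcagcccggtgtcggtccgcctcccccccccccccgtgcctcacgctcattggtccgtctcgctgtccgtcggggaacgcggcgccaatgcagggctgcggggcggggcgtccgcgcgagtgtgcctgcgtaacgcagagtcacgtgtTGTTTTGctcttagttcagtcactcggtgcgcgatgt
Igfbp3: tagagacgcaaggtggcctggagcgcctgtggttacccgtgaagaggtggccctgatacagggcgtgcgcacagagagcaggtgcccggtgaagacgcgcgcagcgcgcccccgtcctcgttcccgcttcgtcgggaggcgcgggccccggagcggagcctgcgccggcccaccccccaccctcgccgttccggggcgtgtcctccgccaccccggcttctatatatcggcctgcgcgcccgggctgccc
Igfbp5: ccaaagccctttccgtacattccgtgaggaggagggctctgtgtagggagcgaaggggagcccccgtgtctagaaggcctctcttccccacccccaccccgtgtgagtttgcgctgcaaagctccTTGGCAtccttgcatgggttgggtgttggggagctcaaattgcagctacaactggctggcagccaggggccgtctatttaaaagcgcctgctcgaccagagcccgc
*Irs1* held the insulin response core TGTTTTG at 2 places and *Irs2* at 1, beginning 111 and 32 bases before the start of *Irs1* and 37 bases before that of *Irs2*. This motif was present in 5.56% of 32851 promoters of the same length. *Igfbp5* held the NFI half-site TTGGCA, beginning 125 bases before the RefSeq start, which 12.3% of promoters also held. The full NFI palindrome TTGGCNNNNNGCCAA (0.0365% of promoters), the C/EBP palindrome TTGCGCAA (0.164%) and the FOXO site TGTTTAC (3.17%) were not matched in the windows of the 9 genes. No motif of the list was matched in the *Igfbp3* window, nor in those of *Igf1*, *Igf1r*, *Igfbp2*, *Igfbp4* and *Igfbp7*, so that the windows shown include every match. The *Igf1* window, chr10:87860861-87861110 (plus), lies before a RefSeq start inside the gene as placed above. The bases before the GENCODE start of *Igf1* at 87858265 were therefore not searched. The half-site and the palindrome share the letters TTGGC, and TGTTTAC and TGTTTTG share TGTTT. A match is a description of these letters only.

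Among the IGFBP genes the lines differed most. *Igfbp5* (chromosome 1, 72857932 to 72874884, minus strand), which encodes a secreted IGFBP that also binds the extracellular matrix, was close to silent at day 0, with 8 reads in shControl, 4 in shKDM4D and 0 in shNFIB and shMLL1 cells. In shControl cells it reached 17.1 RPKM (1980 reads) at day 5, from 0.0500 at day 0, a log2 change of 8.41 (7.43 to 9.63). In the knockdown lines at day 5 it had 0.154 RPKM (20 reads) for shKDM4D, 0.0105 (1 read) for shNFIB and 0.620 (142 reads) for shMLL1 cells. The shControl library at day 5 thus stood far above the other 7. The log2 ratio to it was -6.79 (-7.51 to -6.16) for shKDM4D, -10.66 (-15.97 to -8.18) for shNFIB and -4.78 (-5.04 to -4.54) for shMLL1 cells. Within the lines, *Igfbp5* went from 4 to 20 reads in shKDM4D cells (log2 2.18, 0.60 to 4.18), a change that was within 2-fold with 0.1 (0.92) or 1 (0.16) added to each RPKM. From 0 reads at day 0, the interval of the log2 change began at 5.25 for shMLL1 cells. The shNFIB cells had 0 and 1 reads, too few for a fold. The adipocyte marker sum was also highest in shControl cells at day 5, but the orders differed below it, since shKDM4D cells had more of the markers (25.5 against 2.86) and less *Igfbp5* (0.154 against 0.620) than shMLL1 cells. The part of the number of adipocytes in the *Igfbp5* level was not tested.

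*Igfbp2* (chromosome 1, 72824503 to 72852474, plus strand), which encodes an IGFBP known from white preadipocytes, lies tail to tail with *Igfbp5* at a distance of 5.46 kb. The control line gave 3 reads before induction and 2 after it, and each knockdown line gave 0 and then 1. Its highest RPKM was 0.0610, and it is the one gene of the 10 that did not pass an RPKM of 1 in any library. The next protein-coding genes, chosen after the values of *Igfbp5* were seen, were *Rpl37a* at 115 to 141 RPKM on one side and *Tnp1* with no read and *Tns1* at 6.72 to 12.3 RPKM on the other. Of these *Rpl37a* was 125 and 132 RPKM and *Tns1* 6.72 and 11.2 RPKM on the 2 days in the control line, and the reads of *Igfbp2* and *Tnp1* were too few to show a change or its absence.

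*Igfbp3* (chromosome 11, 7206086 to 7213923, minus strand), the main carrier of IGF1 in blood, split the knockdown lines. Its RPKM at day 0 was 1.08 for shControl, 0.818 for shKDM4D, 0.0171 for shNFIB and 0.878 for shMLL1 cells, and at day 5 it was 3.77, 17.6, 0.0202 and 6.02. In shNFIB cells this was 1 read on each day, against 90 and 228 reads in shControl cells. Relative to the control line this was a log2 ratio of -5.98 (-11.30 to -3.46) before induction and of -7.55 (-12.86 to -5.05) after it, so that the gene was already lower before induction. In shKDM4D cells it was 4.66-fold higher than in shControl cells at day 5 (log2 2.22, 2.02 to 2.43), whereas the day 0 ratio of -0.40 (-0.93 to 0.11) could not be told from 0. In shMLL1 cells the day 5 ratio was 0.67 (0.46 to 0.90). From day 0 to day 5 *Igfbp3* rose in shControl (log2 1.80, 1.45 to 2.17), shKDM4D (4.43, 4.02 to 4.86) and shMLL1 cells (2.78, 2.48 to 3.09), and the 3 intervals did not overlap. Its neighbour *Igfbp1*, which lies 3.54 kb away and encodes the liver-type binding protein, was at most 0.0414 RPKM. *Tns3*, the next protein-coding gene on the other side and named after the *Igfbp3* values were seen, lies 1218 kb away. It was at 14.4 RPKM before induction and 17.2 after it in shNFIB cells. *Adcy1*, beyond *Igfbp1* and 27.6 kb from *Igfbp3*, was low in every library but differed between these lines. It was at 0.385 RPKM in shNFIB against 0.0330 in shControl cells before induction, and at 0.428 against 0.0207 after it.

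*Igfbp4* (chromosome 11, 99041244 to 99054392, plus strand), whose product restrains IGFs until a protease cleaves it, had an RPKM of 9.51, 5.18, 9.75 and 3.69 at day 0 in shControl, shKDM4D, shNFIB and shMLL1 cells, and of 31.0, 20.7, 11.6 and 21.04 at day 5. All day 5 values lay above all day 0 values, and shNFIB cells had the lowest of the former and the highest of the latter. The gene rose in shControl (log2 1.70, 1.60 to 1.80), shKDM4D (2.00, 1.85 to 2.15) and shMLL1 cells (2.51, 2.39 to 2.64). In shNFIB cells the change was 0.25 (0.11 to 0.40), and it became -0.31 when scaled to *Gapdh*. At day 5 *Igfbp4* was 2.66-fold lower in shNFIB than in shControl cells (log2 -1.41, -1.53 to -1.30), with ratios of -0.58 (-0.67 to -0.50) for shKDM4D and -0.56 (-0.63 to -0.48) for shMLL1 cells. At day 0 it was lower in shMLL1 cells (log2 -1.37, -1.51 to -1.22).

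*Igfbp7* (chromosome 5, 77349240 to 77408041, minus strand) was by far the most abundant of the 10 genes, and it went the other way. Its RPKM was 365 for shControl, 558 for shKDM4D, 703 for shNFIB and 336 for shMLL1 cells at day 0 and 196, 235, 366 and 143 at day 5, which put it above 97.4% of the expressed genes in every library. The log2 change was -0.90 (-0.95 to -0.85), -1.24 (-1.29 to -1.20), -0.94 (-0.98 to -0.90) and -1.24 (-1.28 to -1.19) across these lines, past 2-fold in shKDM4D and shMLL1 cells. Quantile normalization, the scaling named in the study's methods, put the change past 2-fold in all 4 lines, at -1.09 for shControl, -1.31 for shKDM4D, -1.12 for shNFIB and -1.40 for shMLL1 cells. Leaving out the 2 rRNA-like rows also did so (-1.01 for shControl and shNFIB cells), whereas scaling to *Gapdh* brought shKDM4D cells to -0.78 and shNFIB cells to -1.51. In shNFIB cells *Igfbp7* was 1.93 times the shControl level at day 0 and 1.87 times at day 5. The 3′ ends of *Igfbp7* and of *Polr2b*, a gene of the opposite strand at 22.3 to 34.1 RPKM, overlap by 85 bases.

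**Figure D3:**
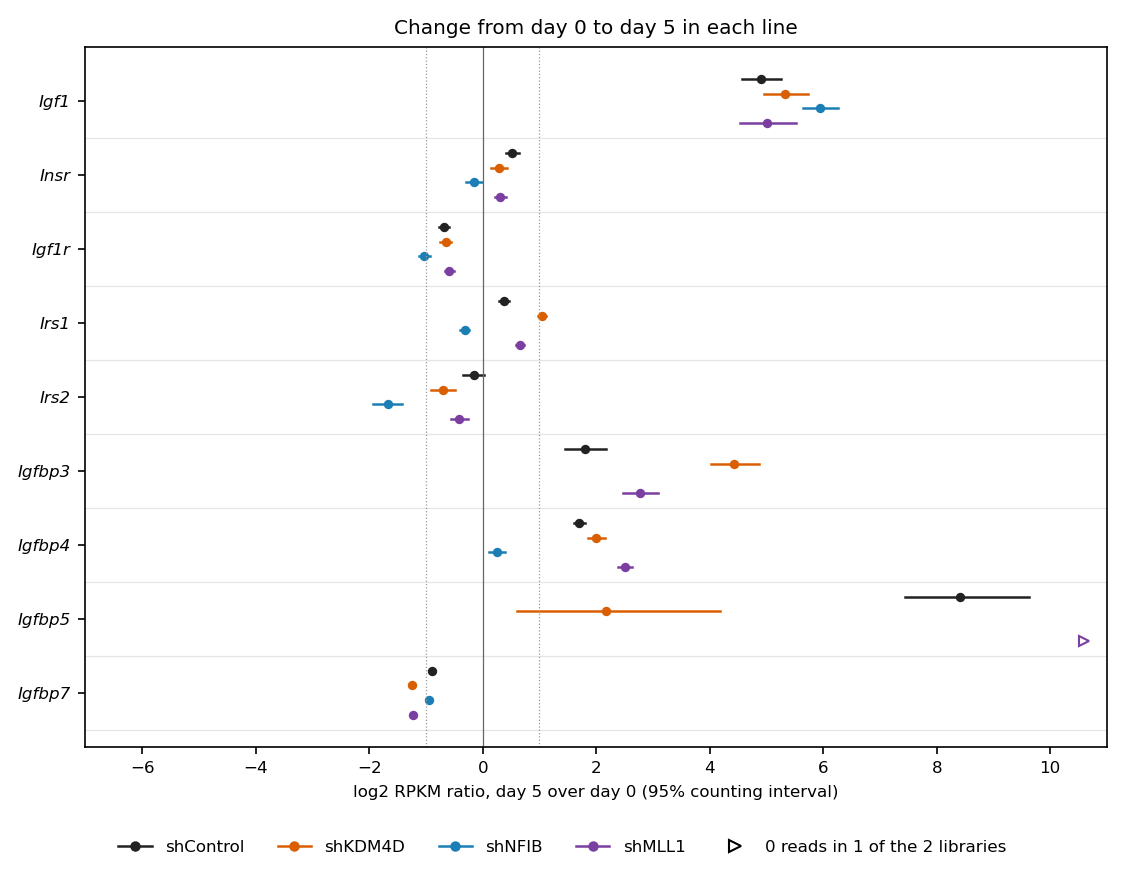
Log2 RPKM ratio of day 5 to day 0 (horizontal) for 9 of the genes in the 4 lines, with points for the ratio, bars for the exact 95% counting interval, a triangle where the day 0 library had 0 reads, and dotted lines at 2-fold. Ratios of 2 libraries with 3 reads or fewer are not drawn, which leaves out *Igfbp3* and *Igfbp5* in shNFIB cells. *Igf1* is far to the right in all 4 lines (4.90 to 5.94), while *Igfbp7* (-0.90 to -1.24) and *Igf1r* (-0.59 to -1.03) are to the left in all 4.

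The mix of binding protein transcripts differed between the days and between the lines. *Igfbp7* made up 97.1% of the summed RPKM of the 5 IGFBP genes in shControl cells before induction and 79.0% at day 5. Its share was 98.9% and 86.0% for shKDM4D, 98.6% and 96.9% for shNFIB, and 98.7% and 83.8% for shMLL1 cells. Leaving *Igfbp7* aside, the remaining IGFBP genes summed to 10.7 RPKM at day 0 and 51.8 at day 5 for shControl cells, 6.03 and 38.4 for shKDM4D, 9.77 and 11.7 for shNFIB, and 4.57 and 27.7 for shMLL1 cells. In shControl cells at day 5 this sum was 59.7% *Igfbp4*, 32.9% *Igfbp5* and 7.27% *Igfbp3*. In shKDM4D cells it was 53.8% *Igfbp4* and 45.7% *Igfbp3*, in shMLL1 cells 76.0% *Igfbp4* and 21.7% *Igfbp3*, and in shNFIB cells 99.4% *Igfbp4*. The gene next to *Igfbp4* in this sum was therefore *Igfbp5* in shControl cells and *Igfbp3* in shKDM4D and shMLL1 cells. *Igf1* divided by *Igfbp4* was 0.271 (0.254 to 0.288) for shControl, 0.604 (0.569 to 0.640) for shKDM4D, 2.66 (2.47 to 2.86) for shNFIB and 0.149 (0.139 to 0.159) for shMLL1 cells at day 5, from at most 0.0598 at day 0.

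**Figure D4:**
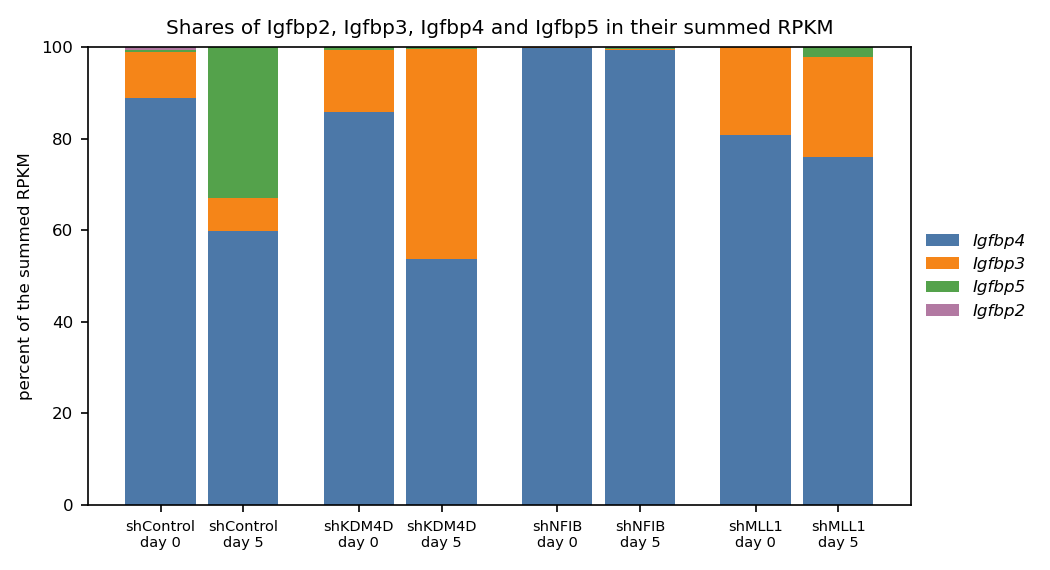
Stacked bars of the percent that *Igfbp2*, *Igfbp3*, *Igfbp4* and *Igfbp5* take of their summed RPKM (vertical) in each of the 8 libraries (horizontal). *Igfbp5* takes 32.9% in shControl cells at day 5, *Igfbp3* takes 45.7% in shKDM4D cells at day 5, and *Igfbp4* takes nearly the whole bar in shNFIB cells on both days.

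Counted over the list, 9 of the 10 genes passed an RPKM of 1 in at least 1 library, *Igf1* through day 5 values alone and *Igfbp5* through the shControl library at day 5 alone, so that the counts describe the list and support nothing beyond it. The background is the share of the 11513 genes that passed the same limit. From day 0 to day 5 in shControl cells 4 of 9 genes rose (*Igf1*, *Igfbp3*, *Igfbp4* and *Igfbp5*; 13.0% of all genes) and 0 fell (8.56%). In shKDM4D cells 5 rose, *Irs1* being added (12.8%), and *Igfbp7* fell (8.44%). In shMLL1 cells 4 rose (20.4%) and *Igfbp7* fell (6.89%). In shNFIB cells 1 rose, *Igf1* (12.6%), and 2 fell, *Igf1r* and *Irs2* (4.96%), with *Igfbp5* left uncounted at 1 read against 0. The median log2 change of the 9 genes was 0.52 for shControl, 1.04 for shKDM4D, -0.16 (-0.24 without *Igfbp5*) for shNFIB and 0.66 (0.48 without *Igfbp5*) for shMLL1 cells, beside 0.03, 0.03, 0.10 and 0.17 over all 11513 genes. These medians include *Igf1* and *Igfbp5*, which passed through day 5 values, so they are not a result about the list. Without these 2 genes the median would be that of *Irs1* for shControl (0.38) and shNFIB cells (-0.32). It would be that of *Insr* for shKDM4D (0.29) and shMLL1 cells (0.31).

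The knockdown lines were compared with the same shControl library, so their ratios are not independent of each other. At day 0, shKDM4D cells had 0 of 9 genes higher (1.98% of all genes) and 0 lower (4.26%). In shNFIB cells 0 were higher (2.95%) and 2 lower (6.05%), *Igfbp3* and *Igfbp5*. For *Igfbp5*, with 8 reads in shControl and 0 in shNFIB cells, the interval of the log2 ratio reached up to -0.26, which is within 2-fold. In shMLL1 cells 0 were higher (1.67%) and 3 lower (7.43%), *Igf1*, *Igfbp4* and *Igfbp5*, the last with an interval that reached up to -1.29. At day 5, 2 genes were higher in shKDM4D cells (1.88%), *Irs1* and *Igfbp3*, and 1 was lower (4.57%). In shNFIB cells *Igf1* was higher (5.54%) and 3 were lower (5.67%), *Igfbp3*, *Igfbp4* and *Igfbp5*. In shMLL1 cells 0 were higher (5.25%) and 2 lower (4.02%), *Igf1* and *Igfbp5*. *Igfbp5* was the one gene of the list past 2-fold on the same side in all 3 lines at day 5, but it was in the list of 9 only through the shControl library that all 3 ratios share, so that it had to be lower there. Over the 9 genes the median log2 ratio at day 5 was -0.22 for shKDM4D, -0.50 for shNFIB and -0.45 for shMLL1 cells, beside 0.01, 0.09 and 0.07 over all genes. These medians include *Igfbp5*, so they are not a result about the list. Without it they would lie from -0.22 (*Igf1r*) to 0.27 (*Igfbp7*) for shKDM4D and from -0.50 (*Insr*) to 0.03 (*Irs1*) for shNFIB cells. For shMLL1 cells the limits would be -0.45 (*Igfbp7*) and -0.41 (*Igf1r*).

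**Figure D5:**
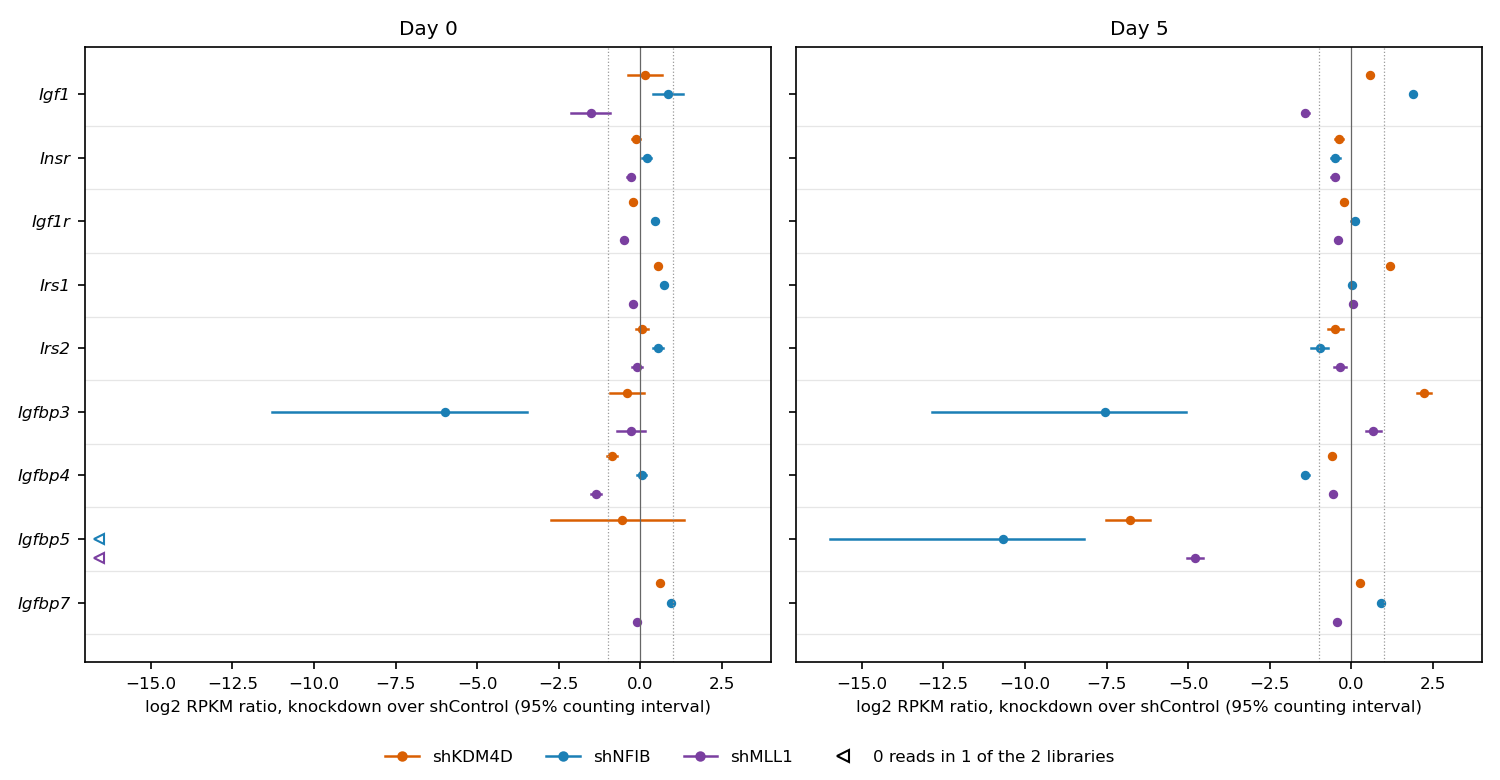
Log2 RPKM ratio of each knockdown line to shControl cells (horizontal) at day 0 (left) and day 5 (right) for 9 of the genes, with points for the ratio, bars for the exact 95% counting interval, triangles where the knockdown library had 0 reads, and dotted lines at 2-fold. At day 5 *Igfbp5* lies far to the left in all 3 lines (-4.78 to -10.66), *Igfbp3* goes from -7.55 in shNFIB to 2.22 in shKDM4D cells, and *Insr* lies within 2-fold throughout.

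The rest of the pathway was followed through 65 further genes, of which 56 passed an RPKM of 1. From day 0 to day 5, 11 of them rose and 2 fell in shControl cells, beside 13.0% and 8.56% of all genes. The counts were 10 and 4 for shKDM4D (12.8% and 8.44%), 8 and 2 for shNFIB (12.6% and 4.96%), and 10 and 2 for shMLL1 cells (20.4% and 6.89%). At day 5, 2 of the 56 were higher and 4 lower for shKDM4D than for shControl cells (1.88% and 4.57%), 4 and 7 for shNFIB (5.54% and 5.67%), and 3 and 5 for shMLL1 cells (5.25% and 4.02%). The median log2 change of the 56 genes from day 0 to day 5 was 0.19, 0.062, 0.0018 and 0.26 for shControl, shKDM4D, shNFIB and shMLL1 cells. The PI3-kinase subunit gene *Pik3r1* went from 15.1 to 62.8 RPKM in shControl cells (log2 2.06, 2.00 to 2.11). At day 5 it was 58.7 for shKDM4D, 24.8 for shNFIB and 32.1 for shMLL1 cells, past 2-fold from shControl in shNFIB cells (log2 -1.34, -1.39 to -1.29). Its relative *Pik3r3* went from 1.98 to 3.99 in shControl and from 1.34 to 8.05 in shNFIB cells. *Pde3b*, the phosphodiesterase by which insulin restrains lipolysis, rose in shControl cells from 3.11 to 10.3 RPKM (log2 1.73, 1.60 to 1.85) and was 1.94 for shNFIB cells at day 5 (ratio to shControl -2.41, -2.60 to -2.23), against 12.7 for shKDM4D and 14.3 for shMLL1 cells. At day 0 *Pde3b* was already lower in shNFIB cells (1.26 RPKM, log2 -1.31, -1.53 to -1.08). It was already higher in shMLL1 cells (7.04 RPKM, log2 1.18, 1.06 to 1.30). *Tbc1d4* (AS160), the AKT substrate that holds back GLUT4 vesicles, went from 2.99 to 7.10 in shControl cells and was between 4.84 and 8.74 in the knockdown lines at day 5.

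*Trib3*, which encodes a pseudokinase that binds AKT, changed in opposite directions in the lines. Its RPKM went from 27.9 at day 0 to 3.21 at day 5 for shControl and from 24.2 to 6.71 for shKDM4D cells, but from 2.29 to 9.33 for shNFIB and from 4.003 to 17.3 for shMLL1 cells. At day 5 it was higher than in shControl cells in all 3 knockdown lines, by 1.06 (0.76 to 1.37) on the log2 scale in shKDM4D, by 1.54 (1.24 to 1.84) in shNFIB and by 2.43 (2.17 to 2.69) in shMLL1 cells. Of the genes that act on the IGFBPs, *Pappa2*, a protease that cleaves IGFBP3 and IGFBP5, went from 0.252 to 1.15 RPKM in shControl cells and reached 1.82 for shKDM4D, 7.08 for shNFIB and 3.88 for shMLL1 cells at day 5. Its ratio to shControl cells at day 5 was 2.63 (2.42 to 2.84) in shNFIB and 1.76 (1.56 to 1.97) in shMLL1 cells. In shNFIB cells *Pappa2* was already higher at day 0 (0.786 RPKM, log2 1.64, 1.22 to 2.08). *Stc1*, which encodes an inhibitor of these proteases, went from 0.242 to 3.59 in shControl cells and was 11.6 in shKDM4D cells at day 5 (3.23 times the shControl level). It was already 1.49 RPKM, 6.16 times the shControl level (log2 2.62, 2.01 to 3.28), in shKDM4D cells at day 0. Of the remaining IGFBP genes, *Igfbp6* lay between 0.145 and 1.04 RPKM, *Igfals* reached 0.539, and *Igfbpl1* was at most 0.0161.

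Across the 8 libraries, the genes whose log2(RPKM + 0.1) followed that of a given gene most closely among all genes that passed were listed as a description. The 8 points are 4 lines on 2 days, so that any pair of genes that move with the day will correlate. For *Igfbp5* they were *Mc2r*, the ACTH receptor gene (Pearson r = 0.996), *Pgrmc2* (0.984) and *BB287469* (0.976). *Igfbp5* was at 17.1 RPKM in shControl cells at day 5 and at most 0.620 in any other library. Its r values therefore rest largely on 1 library. *Mc2r* and *BB287469* had no read in some library and reached no more than 2.52 and 1.87 RPKM. For *Igfbp3* they were *Atf7* (0.975), *Oscp1* (0.961) and *Grasp* (0.960), and for *Igfbp4* *Zbtb4* (0.979), *Fbxl20* (0.975) and *Tmem220* (0.972). *Igfbp7* was followed by *Ehbp1l1* (0.985), *Tns4* (0.982) and *Atp8b2* (0.977), of which *Tns4* is the next protein-coding gene to *Igfbp4*. *Igf1* was followed by *Srsf5* (0.988), *Efnb1* (0.987) and *Erp44* (0.987). For the receptors the closest genes were *Pnpla8* (0.959), *Sh3bp5* (0.954) and *Dnajb9* (0.939) with *Insr*, and *Ptpn21* (0.971), *Rasal2* (0.966) and *Serpinb1a* (0.965) with *Igf1r*. For the adaptors they were *Smim15* (0.958), *Gm42047* (0.942) and *Zkscan8* (0.941) with *Irs1*, and *Cdc42ep4* (0.936), *Ahnak* (0.918) and *Tmem245* (0.916) with *Irs2*.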

How the data were processed

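RNA-seq was carried out on 8 libraries, 1 for each of 4 C3H10T1/2 lines at day 0 and day 5, and samples were grouped by the cell line and day in their titles. According to the study's methods, the authors made the libraries with a stranded kit, aligned reads against GRCm38 (mm10) in CLC Genomics Workbench, version 11.0.1, with a cost of 2 for a mismatch and of 3 for an insertion or deletion and with length and similarity fractions of 0.8, and deposited RPKM per gene. The strand setting of the counting is not given in the sources used here. The deposited RPKM values were multiplied by the union exon length of GENCODE M21, available for 40829 of the 41325 symbols. This gave whole reads (96.2% to 96.6% of low values within 0.02) and the depth of each library, 15800000 to 38200000 reads. Ratios were taken on RPKM without a pseudocount, with an exact 95% Clopper-Pearson interval conditional on the summed reads of both libraries. A ratio against 0 reads is given by the finite limit of that interval. The background was all genes with RPKM over 1 in at least 1 library. With 1 library per condition there were no tests and no p-values. All 10 genes are named with their values. Other pathway genes are named if they had an RPKM of at least 5 and passed 2-fold in shControl cells from day 0 to day 5, or against shControl on the same side in all 3 knockdown lines at day 5, together with all other ligand, receptor and IGFBP genes. The 3 genes with the highest correlation are named for each of the 9 genes of the list that passed an RPKM of 1. The genes and lists were chosen with earlier results of these data known. The scripts (Python 3.11.15, numpy 2.4.6, pandas 2.3.3, scipy 1.17.1) were tested on simulated data. Alternatives were other scalings, pseudocounts of 0.1 and 1, a 1.5-fold limit and other filters.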

Additional observations from a re-analysis of the deposited data

Results flagged for a closer look

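In 4 cases 2 lines or 2 days went opposite ways with no overlap, and with 1 library per condition none of these differences was tested. The *Irs1* change from day 0 to day 5 was 1.04 in shKDM4D and -0.32 in shNFIB cells, a gap of 1.36 on the log2 scale. The *Insr* change was 0.52 in shControl and -0.16 in shNFIB cells, a gap of 0.683. The ratio of shNFIB to shControl cells went from 0.19 at day 0 to -0.50 at day 5 for *Insr*, again a gap of 0.683, and from 0.54 to -0.97 for *Irs2*, a gap of 1.51.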

How the results depend on the processing

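No ratio that passed 2-fold changed direction under the alternatives. Quantile normalization, median-of-ratios scaling and leaving out the 2 rRNA-like rows (AY036118 and CT010467.1, which held 7.95% to 10.5% of reads at day 0 and 3.07% to 3.62% at day 5) kept each count of genes past 2-fold within 1.5 times its value, when ratios against 0 reads were counted. The widest case was shNFIB from day 0 to day 5, with 6 genes after quantile normalization against 4. Both counts include *Igfbp5*, and with it left out of both this case would lie past 1.5 times. Among the 6 was *Igfbp3* (-1.26), which had 1 read on each day. Scaling to *Gapdh*, which was 159 to 326 RPKM, moved the median of all genes by up to 0.64 on the log2 scale (shNFIB at day 0) and gave 7 genes in place of 2 past 2-fold in shNFIB and 1 in place of 0 in shKDM4D cells at day 0. Adding 0.1 or 1 to each RPKM left 1 gene in shNFIB and 1 in place of 3 in shMLL1 cells at day 0, and adding 1 left 2 in place of 4 from day 0 to day 5 in shNFIB cells, where the 4 become 3 once an interval that leaves out 0 is asked for, since *Igfbp5* had 1 read against 0. A 1.5-fold limit gave 2 in shKDM4D and 5 in shNFIB cells at day 0. The cause of these shifts was not tested. Without a filter on low values the share of all genes past 2-fold in either direction rose in all 10 comparisons, from between 6.24% and 27.3% to between 20.4% and 41.8%. With an RPKM above 2 it was 4.55% to 25.3%. Adding 1 brought the *Igfbp5* change in shControl cells from 8.41 to 4.10, and adding 0.1 or 1 brought that in shKDM4D cells from 2.18 to 0.92 or 0.16. Without length correction, the read ratio of *Insr* to *Igf1r* in shControl cells was 0.354 at day 0 and 0.814 at day 5. A fit of the day with the line as a block was not run, since the 4 lines carry different hairpins and are not replicates of each other. Depth limits *Igfbp2*, *Igfbp5* at day 0 and *Igfbp3* in shNFIB cells, where few reads were counted.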
